A study of Mus musculus with 18 samples.

Results

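The mir-34 family was followed through 18 small-RNA libraries of the Baf3 line, mouse pro-B cells that need interleukin-3 to grow. The entries mmu-mir-34a, mmu-mir-34b and mmu-mir-34c (mir-34a, mir-34b and mir-34c below) were taken by name, 3 of 1006 miRNA precursors in the deposited counts. They were chosen by their names, as targets of p53, and because read counts of mir-34a were known to differ between the ERH guide populations, so that difference is described here without a test. The study compared cells without SAFB1 and SAFB2, cells without ERH and control cells, all as polyclonal populations.

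Every population, the controls included, carried Cas9 and 1 guide RNA from a stably integrated vector, had been selected with puromycin and bore fluorescent reporters of miRNA activity. Control guides cut Rag1, a gene of antigen receptor rearrangement. SAFB guides cut the genes of SAFB1 and SAFB2, and ERH guides cut Erh. Each genotype had 2 guide populations with 3 libraries each, 1 in each of 3 labelled batches, hence 6 libraries a genotype. The knockout populations had been sorted for a derepressed dsRed reporter of miR-15a, that is, for loss of cluster assistance, and regrown. How control cells were sorted was not given in the sources used here. Libraries of a population share its editing and sorting, and nothing says that they came from separate cultures, so p-values measure the spread between these samples, which may be technical. The mRNAs of the targeted genes were not measured in these libraries.

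miRNAs are cut from hairpins in longer transcripts by the Microprocessor and then by Dicer, and they repress mRNAs that pair with the seed near their 5′ end. The transcripts of mir-34a and of the mir-34b and mir-34c pair are direct targets of the transcription factor p53, which is activated by DNA damage such as double-strand breaks. mir-34 targets include mRNAs of cell cycle and survival genes. mir-34b and mir-34c are also known as miRNAs of multiciliated and germ cells, together with the mir-449 cluster, which has the same seed. SAFB proteins and ERH are partners of the Microprocessor in cluster assistance, where a hairpin that is a poor substrate is cut efficiently thanks to a neighbouring hairpin of its transcript.

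The mature sequences are shown because the seed, in capitals at bases 2 to 8, is what joins these miRNAs, and the bases after it tell their reads apart. For mir-34c the hairpin is shown, with the same 7 letters in capitals where they occur in it.
mmu-miR-34a-5p: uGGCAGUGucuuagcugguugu
mmu-miR-34b-5p: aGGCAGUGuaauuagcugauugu
Mir34c hairpin: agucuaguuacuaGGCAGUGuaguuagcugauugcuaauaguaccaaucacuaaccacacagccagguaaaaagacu
mmu-miR-449a-5p: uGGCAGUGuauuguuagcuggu
mmu-miR-449c-5p: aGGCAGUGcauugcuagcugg
The sequences are those of RefSeq for build GRCm38.p6, in which the seed GGCAGUG stood at bases 2 to 8 of 4 of 1679 mature names, or 0.238%. The name mmu-miR-34c-5p was not among those counted. The other arms do not carry it, and they are shown because mir-34b and mir-34c share a seed there that mir-34a lacks.
mmu-miR-34a-3p: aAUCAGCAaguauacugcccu
mmu-miR-34b-3p: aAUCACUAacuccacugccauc
mmu-miR-34c-3p: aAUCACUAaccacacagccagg
Counted from 1 at the 5′ end of miR-34b-5p, its best match in the Mir34c hairpin had 2 substitutions in 23 bases, A11G and U23C, with the base of miR-34b first. The longest run shared by the Mir34b and Mir34c hairpins was 11 bases, against 8 for Mir34a and either of them. How reads of both miRNAs were told apart was not given in the sources used here, so the split between mir-34b and mir-34c is uncertain.

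In GRCm38, which may not be the build of the counts, Mir34a lies on the plus strand at chr4:150068454-150068555. It overlaps an exon of Gm37795, a gene model to be experimentally checked, and 0 other miRNA genes were annotated within 10 kb. Mir34b at chr9:51103562-51103645 and Mir34c at chr9:51103034-51103110 lie on the minus strand with 451 bases between them. Both are in an intron of Btg4, which runs on the opposite strand. mir-34a is thus a solitary hairpin, and mir-34b and mir-34c form a cluster.

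Libraries held 2699323 to 4470073 miRNA counts and detected 396 to 455 precursors. A miRNA was tested when it passed a minimum count filter of 10, which 273 of 1006 did, and all 3 family members passed. Counts ran from 15 to 887 for mir-34a, from 470 to 1286 for mir-34b and from 2199 to 7036 for mir-34c. mir-34a was thinly counted in control cells: a library with 15 counts has an exact Poisson 95% interval of 8.40 to 24.7, which covers counting error only. The 5 blood cell markers, mir-142a, mir-150, mir-155, mir-181a and mir-181b, summed to 139200 to 162500 CPM (reads scaled to library size) in control, 137200 to 156000 in SAFB and 116600 to 145000 in ERH cells. Of these, 1 was called higher and 2 lower in SAFB cells, and 1 higher and 4 lower in ERH cells (edgeR). Of all tested miRNAs, 30.8% were called higher and 25.3% lower in SAFB cells, and 26.4% and 27.5% in ERH cells. mir-223, a miRNA of myeloid cells, spanned 7511 to 13200 CPM in control, 15010 to 21060 in SAFB and 7452 to 13080 in ERH cells. All SAFB libraries were above all controls for mir-223, as for 19.4% of tested miRNAs, with a log2 fold change of 0.86 (adjusted p = 3.96e-05, edgeR). The erythroid and neuronal markers were at or near 0. The liver miRNA mir-122 spanned 4.68 to 8.32 CPM in control libraries, 6.21 to 15.3 with SAFB knocked out and 7.67 to 34.2 with ERH knocked out. It was called higher in ERH cells (log2 fold change 1.33, adjusted p = 0.0019, edgeR) and not in SAFB cells (0.77, adjusted p = 0.0623, edgeR). The 6 epithelial markers summed to 145.3 to 201.8 CPM in control libraries, 195 to 224 with SAFB and 147.5 to 182.5 with ERH knocked out. Of 5 epithelial markers tested, 3 were called higher in SAFB cells and 0 in ERH cells. mir-200a had all SAFB libraries above all controls (0.50, adjusted p = 0.000408, edgeR), which again held for 19.4% of tested miRNAs. The part of these cell types in the results below was not tested.

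The library of ERH guide 2 in batch 1 stood apart from the other libraries of its population in mir-34a. It held 526 counts, against 45 and 59 in the libraries of batches 2 and 3. Over the 153 miRNAs that averaged 100 or more counts in all 18 libraries together, its log2 CPM correlated by 0.994 to 0.996 with the 3 libraries of ERH guide 1 and by 0.992 and 0.989 with those of its own population. Of 273 miRNAs, mir-34a had the largest excess of this library over both others, 2.99 on the log2 scale. Besides mir-34a, 9 miRNAs that separated the ERH populations most in batches 2 and 3 were examined. For 5 of these 9 this library lay nearer to the mean of ERH guide 1, and for 4 nearer to the mean of the other libraries of its own population. These checks were chosen after the values were seen. ERH fold changes of the family and its seed relatives are therefore given with and without this library. From the p53 list this was done for mir-16, mir-107, mir-182, mir-192 and mir-194.

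mir-34a had the lowest mean of the family in each genotype and was the member that differed most: it was higher in every knockout library than in every control library. CPM values are deposited counts divided by library size after TMM scaling, a factor that corrects for library composition. In the controls, mir-34a stood at 9.26, 7.12 and 8.72 CPM for guide 1 in batches 1, 2 and 3, and at 10.8, 5.68 and 4.01 CPM for guide 2. In SAFB cells, it stood at 18.3, 11.5 and 37.5 CPM for guide 1 and at 24.9, 29.7 and 37.3 CPM for guide 2. In ERH cells, it stood at 227.5, 214.6 and 111.6 CPM for guide 1 and at 126.1, 13.7 and 15.3 CPM for guide 2. All 3 libraries of ERH guide 1 and the batch 1 library of ERH guide 2 lay far above the SAFB range, while the other libraries of ERH guide 2 lay inside it. The genotype means were 7.60 ± 2.49 CPM in control, 26.5 ± 10.4 in SAFB and 118.1 ± 92.6 in ERH cells (SD, n = 6 each).

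**Figure D1:**
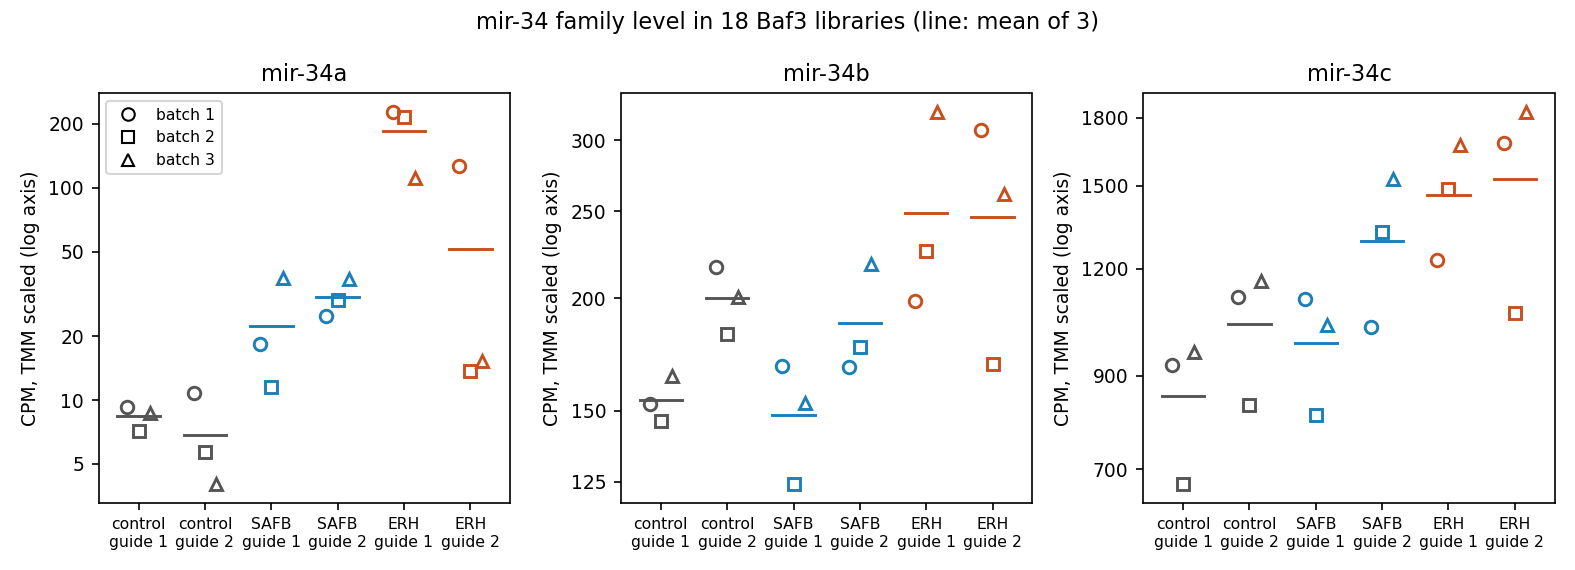
CPM of mir-34a, mir-34b and mir-34c on log axes in 18 libraries, by genotype and guide; symbols mark the batch and lines the mean of 3 libraries. For mir-34a, all control libraries lie below all others, and ERH guide 2 is split between 126.1 CPM in batch 1 and 13.7 and 15.3 CPM in batches 2 and 3.

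In SAFB cells, mir-34a rose 3.51-fold over control, a log2 fold change of 1.81 (SE 0.57, adjusted p = 0.00924, edgeR quasi-likelihood test with Benjamini-Hochberg adjustment, 6 of 6 libraries above all controls). Within batches 1, 2 and 3 the log2 difference was 1.05, 1.46 and 2.54. It was the 1 member of 3 called in SAFB cells, where 56.0% of all tested miRNAs were called, 30.8% as higher, and 19.4% had all SAFB libraries above all controls. mir-223 and 3 epithelial markers were also higher in SAFB cells (above), and their part in this result was not tested. In bulk libraries such as these, more cells with mir-34a and more mir-34a per cell cannot be told apart. The call depended on the tool. In limma the log2 fold change was 1.76 (SE 0.97, adjusted p = 0.13) with no block. It was 1.75 (SE 0.92, adjusted p = 0.109, limma) with the population as a random block. That block used 1 correlation for all miRNAs, -0.074, so it made no allowance for likeness between libraries of a population. With 1 mean per population in edgeR the log2 fold change was 1.80 (adjusted p = 0.00363). That fit takes its error from libraries within populations, so it cannot test the difference against the spread between populations. Without control guide 2 the log2 fold change was 1.73 with an adjusted p = 0.0673, and without SAFB guide 2 it was 1.68 with an adjusted p = 0.0621 (both edgeR).

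In ERH cells, mir-34a rose 15.6-fold, a log2 fold change of 3.97 (SE 0.57, adjusted p = 2.28e-06, edgeR quasi-likelihood test with Benjamini-Hochberg adjustment, 6 of 6 libraries above all controls). Its fold change ranked 29 of 273. The liver miRNA mir-122 was also higher in ERH cells (above), and its part in this result was not tested. Without the batch 1 library of ERH guide 2, the log2 fold change was 4.01 (adjusted p = 5.22e-06, edgeR). Within batches it was 4.01, 3.00 and 2.69. Its size depended on the population: the log2 fold change was 2.78 without ERH guide 1 and 4.65 without ERH guide 2, with adjusted p = 0.000182 and 2.99e-11 in edgeR. The value of 2.78 includes the batch 1 library of ERH guide 2, at 126.1 CPM. The other libraries of that population stood at 13.7 and 15.3 CPM, against a control mean of 7.60. No fit left out both ERH guide 1 and that batch 1 library. All 3 members were called in ERH cells, where 53.8% of all tested miRNAs were called, 26.4% as higher, and 19.4% had all ERH libraries above all controls.

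mir-34a was 4.46-fold higher in ERH than in SAFB cells, a log2 difference of 2.16 (SE 0.50, adjusted p = 0.00125, edgeR quasi-likelihood test with Benjamini-Hochberg adjustment). This was the second highest of 273, yet 2 ERH libraries fell within the SAFB range. Without the batch 1 library of ERH guide 2 the log2 difference was 2.12 (adjusted p = 0.00233, edgeR). Within batches it was 2.96, 1.54 and 0.15. It rested on ERH guide 1, without which it was 0.97 (adjusted p = 0.154, edgeR). mir-223 was lower in ERH than in SAFB cells (-0.92, adjusted p = 3.41e-05, edgeR), with all ERH libraries below all SAFB libraries, as for 6.23% of tested miRNAs. Of 5 epithelial markers tested, 3 were called lower and 0 higher, and of 5 blood cell markers 2 were called higher and 2 lower. Of all tested miRNAs 15.8% were called lower, and the part of these markers in this result was not tested. The SAFB and ERH comparisons share the control libraries, and the count of 3 of 3 members called between the knockouts stands against 39.6% of all tested miRNAs, 23.8% as higher.

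**Figure D2:**
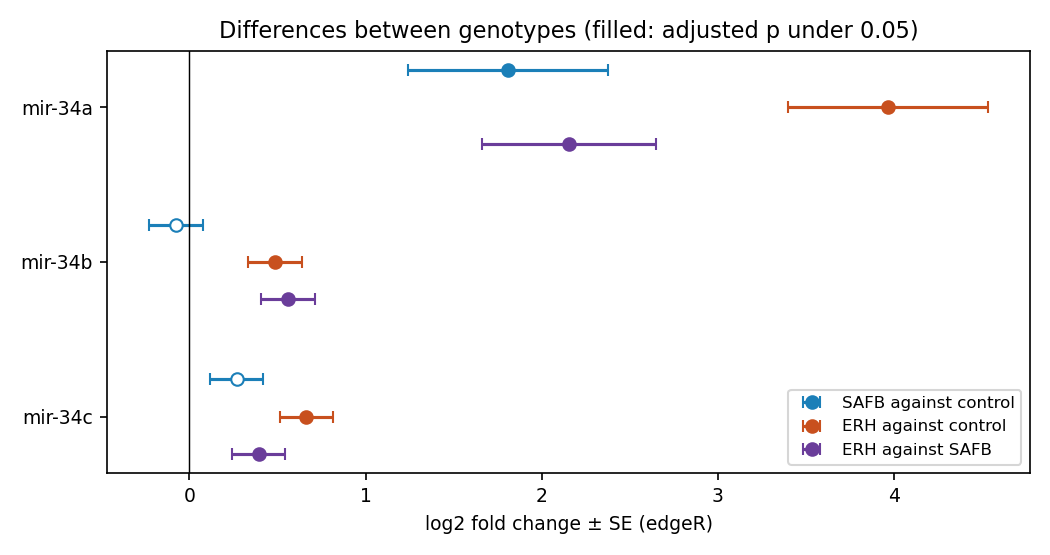
Log2 fold change with its standard error for each family member in the 3 genotype comparisons, from the edgeR fit to 18 libraries; filled points have an adjusted p under 0.05. mir-34a lies at 1.81, 3.97 and 2.16, and mir-34b and mir-34c lie between -0.07 and 0.66.

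The change of mir-34a was also seen against the spike-ins, 4 synthetic RNAs added in a fixed amount to total RNA. mir-34a counts were 0.186% to 0.489% of the summed spike-in counts in the controls, 0.298% to 1.4% in SAFB cells and 0.74% to 9.75% in ERH cells. ERH libraries did not overlap with the controls, while the lowest SAFB library, guide 1 in batch 2, fell among them. On the log2 scale SAFB libraries were 1.53 above control (exact permutation p = 0.00649, adjusted over 3 tests 0.00974), ERH libraries 3.60 above control (exact p = 0.00216, the smallest that 924 arrangements give, adjusted 0.00649) and 2.07 above SAFB (exact p = 0.0346, adjusted 0.0346). All tests were two-sided with 6 libraries a group. Within batches the differences were 1.06, 0.99 and 2.53 for SAFB, 4.33, 3.53 and 2.95 for ERH, and 3.27, 2.54 and 0.42 for ERH against SAFB. Without the batch 1 library of ERH guide 2 they were 3.35 for ERH (exact permutation p = 0.00216) and 1.82 for ERH against SAFB (exact permutation p = 0.0584). The difference between ERH and SAFB also passed no longer without ERH guide 1 (1.11, exact permutation p = 0.31), SAFB guide 1 (1.78, p = 0.155) or SAFB guide 2 (2.36, p = 0.0952). That between SAFB and control passed no longer without control guide 1 (1.41, exact permutation p = 0.0595).

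The difference of mir-34a between the ERH populations, by which it was chosen, was uneven over batches. ERH guide 2 was lower than guide 1 by a log2 difference of -1.82 (SE 0.57), the largest size of 273 miRNAs in that contrast. Within batches it was -0.85, -3.91 and -2.82, and it was -3.65 without the batch 1 library of guide 2. The log2 SD of mir-34a in ERH guide 2 was 1.78, the highest of 157 miRNAs averaging 100 or more counts there, where the median SD of all tested miRNAs was 0.27. mir-34b and mir-34c had differences of -0.01 (SE 0.20) and 0.06 (SE 0.20) in this contrast, with libraries of both guides intermixed, and -0.19 and -0.0047 without that library. With spike-in scaling in place of TMM the differences were -1.11 for mir-34a, 0.59 for mir-34b and 0.64 for mir-34c.

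Between guides of the other genotypes, 0 miRNAs passed the edgeR test, and 7 in control and 10 in SAFB cells had an unadjusted p under 0.05. mir-34a differed by -0.32 (SE 0.77, adjusted p = 0.969, edgeR) between control guides and by 0.46 (SE 0.60, adjusted p = 0.912, edgeR) between SAFB guides on the log2 scale, with overlapping libraries. mir-34b and mir-34c were 0.38 and 0.28 higher in control guide 2 and 0.34 and 0.40 higher in SAFB guide 2 than in guide 1. All 3 libraries of control guide 2 were above those of guide 1 for mir-34b, which held for 2.93% of tested miRNAs. The values so far are from TMM scaling. With spike-in scaling 96 of 273 miRNAs (35.2%) were called between control guides, all higher in guide 2, and 0 between SAFB guides. Between control guides mir-34a then differed by 0.32, mir-34b by 1.02 and mir-34c by 0.90.

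mir-34b, the upstream hairpin of the clustered pair, was not called in SAFB cells and was higher in ERH cells. Its lowest, median and highest library stood at 146.3, 173.3 and 216.6 CPM in control, at 124.3, 167.8 and 218.7 in SAFB, and at 169.2, 243.5 and 322.3 in ERH cells. All genotypes overlapped, and the ERH library of guide 2 in batch 2 lay below the control median. The log2 fold change was -0.07 (SE 0.15, adjusted p = 0.699) for SAFB against control and 0.48 (SE 0.15, adjusted p = 0.00936) for ERH against control in edgeR. ERH exceeded SAFB by 0.56 (SE 0.15, adjusted p = 0.00512, edgeR). Without the batch 1 library of ERH guide 2 the ERH differences were both 0.47 (adjusted p = 0.0143 and 0.0187, edgeR). Within batches, ERH against control was 0.44, 0.26 and 0.68, and ERH against SAFB was 0.56, 0.40 and 0.66. The rise over control was not called without control guide 1 (0.36, adjusted p = 0.161, edgeR), nor that over SAFB without SAFB guide 1 (0.32, adjusted p = 0.185, edgeR).

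mir-34c gave the most reads of the family, and rose in ERH cells. Its lowest, median and highest library stood at 672.7, 942.2 and 1160 CPM in control, at 810.0, 1068 and 1528 in SAFB, and at 1066, 1579 and 1827 in ERH cells. The groups overlapped, with ERH highest at the median and SAFB in between. The log2 fold change was 0.27 (SE 0.15, adjusted p = 0.132) for SAFB and 0.66 (SE 0.15, adjusted p = 0.000655) for ERH against control in edgeR. Without the batch 1 library of ERH guide 2 the latter was 0.69 (adjusted p = 0.000884, edgeR), and within batches it was 0.50, 0.75 and 0.73. ERH exceeded SAFB by 0.39 (SE 0.15, adjusted p = 0.0416, edgeR), which was lost without that library (0.35, adjusted p = 0.093) and in 12 of 18 fits that left out 1 library. Within batches it was 0.43, 0.28 and 0.48. The SAFB difference from control was called in 2 of 18 fits that left out 1 library. It was 0.43 without SAFB guide 1 in batch 2 and 0.41 without control guide 2 in batch 3 (adjusted p = 0.0171 and 0.0286, edgeR). Without SAFB guide 1 it was 0.63 (adjusted p = 0.00332, edgeR).

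Relative to the spike-ins, tested after the data had been seen, mir-34b and mir-34c had their highest genotype mean in ERH cells. On the log2 scale, mir-34b was 0.74 higher in ERH than in control (exact permutation p = 0.0455, adjusted over 15 added tests 0.0974) and 1.05 higher than in SAFB cells (exact permutation p = 0.00649, adjusted 0.0325). mir-34c was 0.94 higher in ERH than in control (exact permutation p = 0.0173, adjusted 0.0433) and 0.91 higher than in SAFB cells (exact permutation p = 0.0108, adjusted 0.0325). Leaving out the batch 1 library of ERH guide 2, these differences were 0.58 (exact permutation p = 0.0909), 0.89 (0.013), 0.81 (0.0346) and 0.78 (0.0216), in the same order. mir-34c in ERH cells had an exact permutation p over 0.05 without control guide 1 (0.47, p = 0.19) or ERH guide 2 (0.61, p = 0.167). Over SAFB cells the same held without SAFB guide 1 (0.73, exact permutation p = 0.0714) or ERH guide 2 (0.58, p = 0.143). mir-34b over SAFB cells had an exact permutation p over 0.05 without ERH guide 2 (0.75, p = 0.0595). With spike-in scaling the 2 control guides also differed, by 1.02 for mir-34b and 0.90 for mir-34c (both adjusted p = 0.0236, edgeR). In that fit 35.2% of all tested miRNAs were called between the control guides, all as higher in guide 2, with a median of 0.63 over all tested. SAFB differed from control by -0.32 for mir-34b and 0.03 for mir-34c (exact permutation p = 0.301 and 0.913), so their order between SAFB and control was not established.

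Scaling moved all tested miRNAs together. The median log2 fold change of ERH against control was -0.06 with TMM, 0.24 with total counts and 0.23 with spike-ins, and the share of calls that were higher was 49.0%, 76.6% and 79.1%. Between ERH and SAFB the medians were 0.04, 0.31 and 0.57, with 60.2%, 93.5% and 99.1% of calls higher. For SAFB against control they were 0.01, 0.04 and -0.23, with 54.9%, 57.7% and 43.1% higher. The 3 members were called higher in ERH cells under each of these scalings. In SAFB cells mir-34c turned from 0.27 to -0.01 with spike-ins, while mir-34a stood at 1.85 with total counts and 1.63 with spike-ins.

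**Figure D3:**
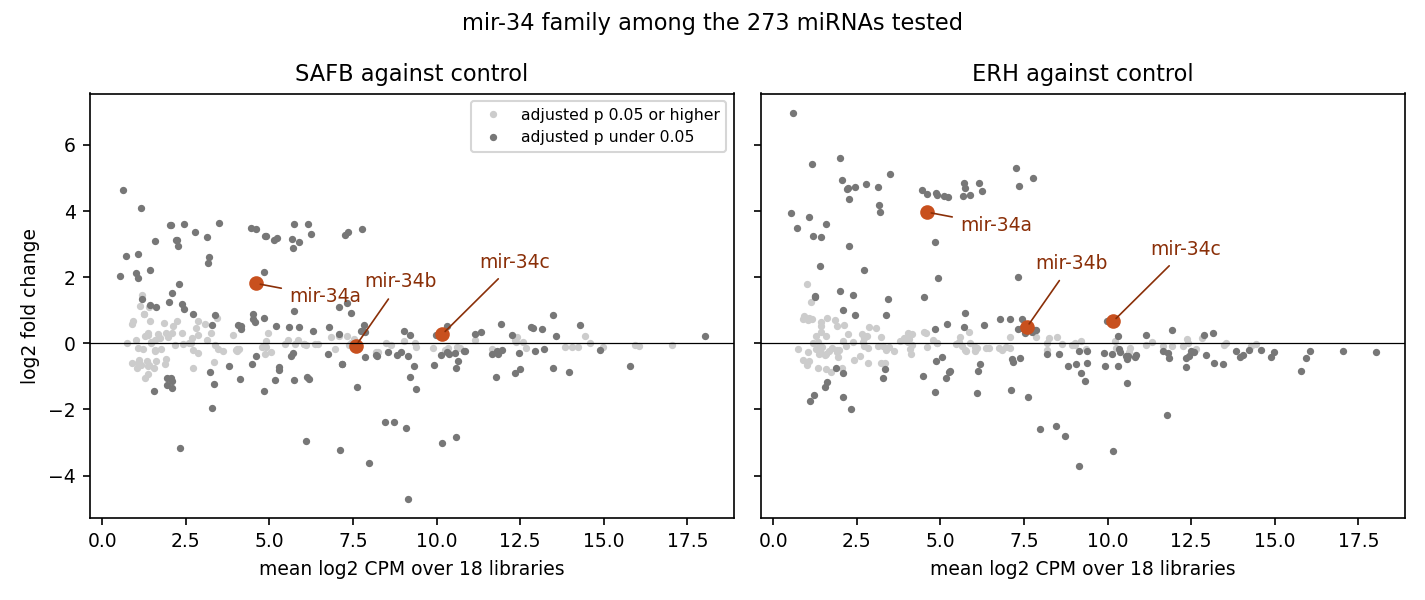
Log2 fold change against mean log2 CPM for the 273 miRNAs tested, for SAFB and ERH against control; dark points have an adjusted p under 0.05 and the family is in orange. mir-34a lies at 1.81 and 3.97, below a set of miRNAs with larger fold changes in each panel, and mir-34b and mir-34c lie near the bulk.

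The makeup of reads within the family differed between genotypes. Of the reads of the 3 entries, mir-34a took 0.294% to 0.862% in control, 1.21% to 3.07% in SAFB cells and 0.728% to 13.8% in ERH cells. mir-34b took a mean of 15.8% ± 1.69 in control, 12.7% ± 0.77 in SAFB cells and 13.3% ± 1.46 in ERH cells (SD, n = 6). mir-34c took a mean of 83.5% ± 1.72 in control, 85.3% ± 0.87 in SAFB cells and 80.4% ± 4.83 in ERH cells (SD, n = 6). These are shares of reads, and reads per molecule may differ between miRNAs. The ratio of mir-34a to mir-34c, chosen after the values were seen, was higher than in control by 1.5 on the log2 scale in SAFB (exact permutation p = 0.00216, adjusted over 15 tests 0.0162) and by 2.67 in ERH cells (exact permutation p = 0.0108, adjusted 0.0325). The latter was 1.37 without ERH guide 1 and 2.32 without control guide 2 (exact permutation p = 0.0595 and 0.0952). The ratio was 1.17 higher in ERH than in SAFB cells (exact permutation p = 0.16, adjusted 0.2), and -0.13 without ERH guide 1. Leaving out the batch 1 library of ERH guide 2, the ratio was 2.55 over control and 1.04 over SAFB cells (exact permutation p = 0.0108 and 0.242).

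The clustered pair kept a narrow ratio that was lower in SAFB cells. mir-34b counts were 16.5%, 21.7% and 17.1% of mir-34c counts for control guide 1 and 19.5%, 22% and 17.3% for control guide 2. They were 15.2%, 15.3% and 14.9% for SAFB guide 1 and 16.3%, 13.4% and 14.3% for SAFB guide 2. They were 16.2%, 15.2% and 19.3% for ERH guide 1 and 18.3%, 15.9% and 14.3% for ERH guide 2. Each SAFB library was below each control library, by a narrow gap from 16.3% to 16.5%, and ERH libraries overlapped with both. SAFB libraries were lower than control, with a log2 difference of -0.35 (exact permutation p = 0.00216, adjusted over 15 tests 0.0162), against -0.20 for ERH (exact permutation p = 0.0758, adjusted 0.114) and 0.14 for ERH against SAFB (exact permutation p = 0.115, adjusted 0.156). The ERH values without the batch 1 library of ERH guide 2 were -0.23 and 0.11 (exact permutation p = 0.0563 and 0.199). Within batches, SAFB minus control was -0.19, -0.61 and -0.24. The batch 2 controls were the highest of all libraries. This ratio, too, was chosen after the values were seen, and it takes the split of reads of similar sequence as deposited.

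**Figure D4:**
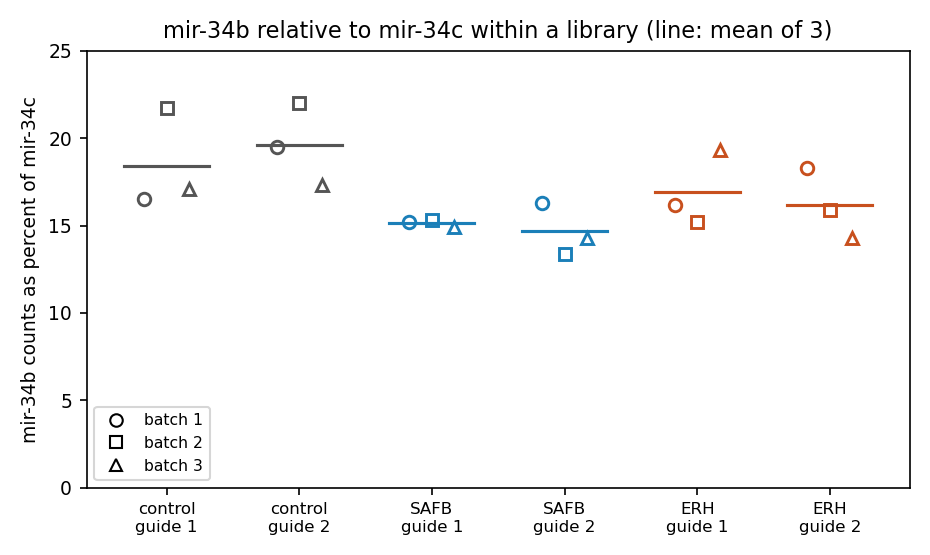
mir-34b counts as a percentage of mir-34c counts in each library, by genotype and guide; symbols mark the batch and lines the mean of 3 libraries. SAFB libraries lie between 13.4% and 16.3%, control libraries between 16.5% and 22%, and ERH libraries between 14.3% and 19.3%.

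Across the 18 libraries, mir-34b and mir-34c varied together, with a Pearson r of log2 CPM of 0.861, and 0.831 for deviations from population means. mir-34a correlated with them less, at 0.536 and 0.628, and 0.42 and 0.301 for deviations. Over deviations, mir-22 (0.848) was closer to mir-34b than mir-34c was. mir-22 (0.893), mir-181a (0.871), mir-26a (0.856), mir-340 (0.848) and mir-146b (0.832) were closer to mir-34c than mir-34b was. All these correlations are descriptions over libraries that share genotype, population and scaling.

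The miRNAs whose log2 CPM was most like that of mir-34a, of 152 candidates averaging 100 or more counts, were mir-218 (r = 0.886), mir-10a (0.828), mir-9 (0.818), mir-194 (0.811) and mir-148a (0.792). The 18 libraries share genotype, population and scaling here too. mir-218 averaged 25.4 and 19.3 CPM in control guides 1 and 2, 218.1 and 210.7 in SAFB, and 1274 and 479.2 in ERH. Like mir-34a it was lowest in control and highest in ERH guide 1, with ERH guide 2 in batch 1 above the other libraries of its population. Over deviations from population means, mir-218 was again the closest (r = 0.80), followed by mir-30e (0.768), mir-378b (0.698), let-7f (0.621) and mir-16 (0.604). All these r values include the library of ERH guide 2 in batch 1, which stood apart in mir-34a, and none was calculated without it.

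**Figure D5:**
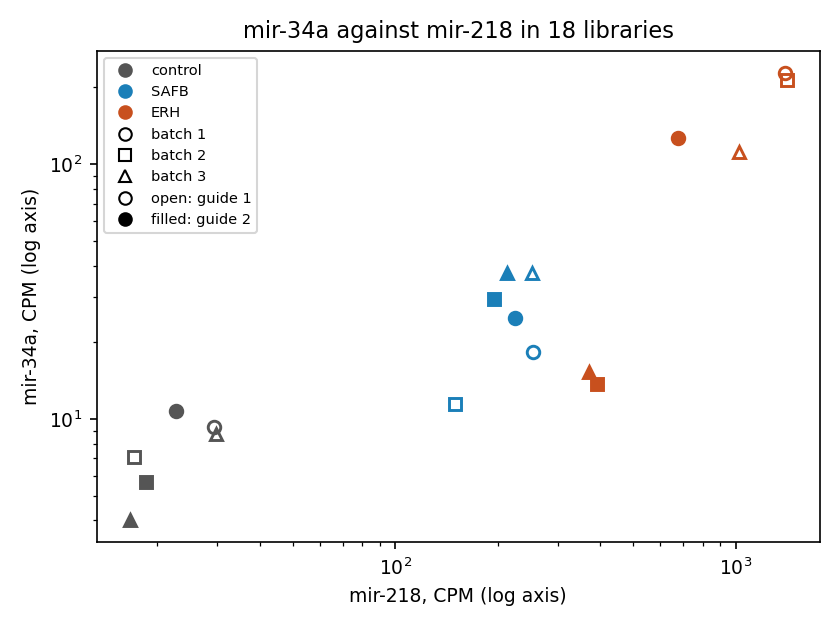
CPM of mir-34a against CPM of mir-218 on log axes in 18 libraries; colours give the genotype, symbols the batch, and filled symbols guide 2. The batch 1 library of ERH guide 2, at 126.1 CPM of mir-34a, lies nearer to ERH guide 1 than the other libraries of its population do.

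The seed relatives of the mir-449 cluster, in an intron of Cdc20b, were not called higher in any comparison over all 18 libraries. mir-449a spanned 103.3 to 127.3 CPM in control, 121.5 to 142.7 in SAFB cells and 81.7 to 113.9 in ERH cells. All ERH libraries were below all SAFB libraries, as for 6.23% of tested miRNAs, while both overlapped with control. Over control, SAFB had a log2 fold change of 0.19 (SE 0.09, adjusted p = 0.0896), ERH one of -0.20 (SE 0.09, adjusted p = 0.0766), and it was -0.39 for ERH against SAFB (SE 0.09, adjusted p = 0.00179), all in edgeR. mir-449c had 21 to 72 counts and was not called in any of the 3 comparisons. Its log2 fold change was -0.22 for SAFB and for ERH against control, and 1e-04 for ERH against SAFB. With the batch 1 library of ERH guide 2 left out, mir-449a differed by -0.13 for ERH against control (adjusted p = 0.328) and by -0.39 for ERH against SAFB (adjusted p = 0.00377, edgeR), and mir-449c by -0.13 and 0.02 (adjusted p = 0.689 and 0.956, edgeR). That fit called mir-449a higher in SAFB cells than in control (0.26, adjusted p = 0.0275, edgeR), as it did 33.3% of all tested miRNAs. The log2 ratio of mir-449a to mir-449c, added after the values were seen, differed by 0.43 for SAFB and 0.04 for ERH against control and by -0.39 for ERH against SAFB (exact permutation p = 0.0758, 0.874 and 0.0606, adjusted over 15 tests 0.114, 0.913 and 0.114). With that library left out, the ERH values of this ratio were 0.025 and -0.41 (exact permutation p = 0.935 and 0.0779). mir-449b had 0 counts in all 18 libraries, which allows up to 3 counts a library, or 0.717 to 1.14 CPM.

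Other miRNAs that have been tied to p53 moved in both directions. Of 14 listed, 13 were in the counts and 10 were tested. In SAFB cells 5 were called higher, 1 lower and 4 neither, where 30.8% of all tested miRNAs were higher and 25.3% lower. In ERH cells 3 were higher, 3 lower and 4 neither, where 26.4% of all were higher and 27.5% lower. Between ERH and SAFB, 3 were higher, 3 lower and 4 neither, where 23.8% of all were higher and 15.8% lower. The median log2 fold changes were 0.23, -0.09 and -0.07, against 0.01, -0.06 and 0.04 for all tested miRNAs. mir-149, among the members called higher in all 3 comparisons, passed the filter only through its knockout counts. The 9 tested without it had 4, 2 and 2 called higher, with medians of 0.23, -0.14 and -0.11. With the batch 1 library of ERH guide 2 left out, 7 of 10 were called higher and 1 lower in SAFB cells, 3 and 2 in ERH cells, and 3 and 3 between ERH and SAFB. The 9 without mir-149 then had 6, 2 and 2 called higher and 1, 2 and 3 lower, with medians of 0.305, -0.076 and -0.115. In that fit 33.3% of all tested miRNAs were higher and 22% lower in SAFB cells, 27% and 23.4% in ERH cells, and 22% and 15.6% between ERH and SAFB. The medians of the 10 were then 0.307, 0.022 and -0.09, against 0.087, 0.008 and 0.025 for all tested miRNAs.

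mir-192, which is induced by p53 in other cells, fell by 3.22 in SAFB and by 1.41 in ERH cells on the log2 scale (adjusted p = 1.32e-12 and 3.64e-07, edgeR). mir-194, its frequent cluster partner, had 0.23 in SAFB (adjusted p = 0.0786) and rose by 0.44 in ERH cells (adjusted p = 0.00139, edgeR). mir-149 had 0 to 5 counts in control libraries, 13 to 31 in SAFB and 38 to 61 in ERH libraries. mir-182 had 12 to 28 counts in control, 124 to 272 in SAFB and 382 to 558 in ERH libraries, and rose by 3.13 and 4.45 (adjusted p = 2.74e-11 and 3.84e-14, edgeR). mir-16, which supports mir-15a in cluster assistance and gave 662351 to 1371109 counts, was 0.21 higher in SAFB and fell by 0.27 in ERH cells (adjusted p = 0.00053 and 2.83e-05, edgeR). mir-143 and mir-200c were called higher in SAFB cells, at 0.56 and 0.51 (adjusted p = 0.028 and 0.0144, edgeR), and not called in ERH cells (0.14 and -0.04). mir-107, mir-141 and mir-22 were not called in SAFB cells, with log2 fold changes of -0.13, -0.04 and 0.23. mir-107 was called lower in ERH cells (-0.16, adjusted p = 0.0451, edgeR), a call that was lost without the batch 1 library of ERH guide 2 (-0.12, adjusted p = 0.189, edgeR). With the batch 1 library of ERH guide 2 left out, the ERH values were -1.27 for mir-192, 0.45 for mir-194, 4.61 for mir-182 and -0.24 for mir-16 (adjusted p = 5.23e-06, 0.00116, 6.61e-14 and 0.000134, edgeR). The same fit called mir-194 and mir-22 in SAFB cells, at 0.31 in both (adjusted p = 0.0155 and 0.0286, edgeR).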

How the data were processed

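The deposited values are raw read counts for each miRNA precursor and 4 spike-ins in 18 libraries; the authors' aligner, genome build, annotation, treatment of shared reads and use of molecular identifiers were not given in the sources used here. The submitters' processing notes name SAMtools. Libraries were made with the QIAseq miRNA kit, per the labels' protocols. Spike-ins took 0.165% to 0.366% of counts and stayed out of library sizes.

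Counts were filtered with filterByExpr (minimum count 10, by guide population), scaled by TMM and tested with edgeR 4.0.16 (quasi-likelihood; limma 3.58.1, R 4.3.3), with 1 mean per genotype over 18 libraries and Benjamini-Hochberg adjustment over 273 miRNAs; calls had an adjusted p under 0.05. Guide contrasts used 1 mean per population. Log2 CPM used a prior count of 2. Ratios within a library were compared by exact two-sided permutation, 6 against 6. The 3 tests of mir-34a per spike-in were adjusted together; 15 further tests (mir-34b and mir-34c per spike-in and the ratios mir-34b to mir-34c, mir-34a to mir-34c and mir-449a to mir-449c, in 3 comparisons each) were added after the data had been seen and adjusted together. DESeq2 1.42.0 and the other alternatives are in the closing section.

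The members and lists were chosen with earlier results of these data known. Named were the members, seed relatives, p53-associated miRNAs and the 5 miRNAs most correlated with mir-34a; others, such as mir-122, came from marker lists. Batch numbers pair libraries per the labels; deviations from population means correlated by 0.0283 on average within a batch (45 pairs) and by -0.0142 between batches (90 pairs). Pairs of libraries of a population differed by more than sampling noise (chi-square per degree of freedom 33 to 192). That noise covers counting error only and takes each read as independent. In a check on simulated counts for ERH against control, 82 of 200 changed miRNAs were tested. Of these 100% were called, and 3.53% of calls were false. These rates hold for the simulated counts only. Whether they apply to libraries that share a population, or to changes as small as those of mir-34b and mir-34c, was not tested.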

Additional observations from a re-analysis of the deposited data

How the results depend on the processing

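mir-34a in ERH against control was called under every alternative tried: RLE factors, total counts, spike-in scaling, DESeq2, no filter, the batch block, only the libraries compared, limma with and without a random block, 1 mean per population, and leaving out each library or population. With the batch as replicate block mir-34a stood at 1.86 in SAFB, 3.93 in ERH and 2.07 in ERH against SAFB, and the block changed no call of a family member in edgeR. Among the permutation tests, the block moved the unadjusted exact permutation p of mir-34b per spike-in for ERH from 0.0455 to 0.0926 (adjusted 0.0974 without it), and that of mir-449a to mir-449c in ERH against SAFB from 0.0606 to 0.0463. For each changed value below, the cause was not tested.

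With spike-in scaling, ERH against control had 91 calls in place of 147 and the control guides 96 in place of 0, among them mir-34b (1.02) and mir-34c (0.90). mir-34a between control guides turned to 0.32 and mir-34c in SAFB to -0.0053. Between ERH guides mir-34a moved to -1.11, mir-34c to 0.64 and mir-34b turned to 0.59; mir-34b also turned to 0.0117 with total counts and to 0.0112 with no filter.

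Leaving out a population changed these log2 values. mir-34a in SAFB lost its call without control guide 2 (1.73) and SAFB guide 2 (1.68), and with limma, both with a random block (1.75, consensus correlation -0.074) and, added after the data had been seen, with no block (1.76). mir-34a in ERH against SAFB lost it without ERH guide 1 (0.97). mir-34b in SAFB turned to 0.19 without control guide 2 and 0.26 without SAFB guide 1. mir-34b lost its call in ERH without control guide 1 (0.36) and in ERH against SAFB without SAFB guide 1 (0.32). mir-34c in SAFB was called without control guide 2 (0.48), SAFB guide 1 (0.63) and ERH guide 2 (0.34). mir-34c in ERH against SAFB lost its call without control guide 1 (0.36), control guide 2 (0.36), SAFB guide 1 (0.14), ERH guide 1 (0.42) and ERH guide 2 (0.33). mir-34a per spike-in lost its call in SAFB without control guide 1 (1.41), and in ERH against SAFB without SAFB guide 1 (1.78), SAFB guide 2 (2.36) and ERH guide 1 (1.11).

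Leaving out 1 library at a time gave these log2 ranges: mir-34a 1.72 to 2.05 in SAFB, 3.73 to 4.25 in ERH and 1.86 to 2.38 in ERH against SAFB; mir-34b -0.13 to 0.0747, 0.43 to 0.60 and 0.45 to 0.65; mir-34c 0.21 to 0.43, 0.62 to 0.78 and 0.29 to 0.50. Between ERH guides they were -3.65 to -1.43 for mir-34a, -0.20 to 0.19 for mir-34b and -0.11 to 0.21 for mir-34c. mir-34a per spike-in in ERH against SAFB ran from 1.77 to 2.51, with 5 of 12 fits no longer under 0.05. The ratio of mir-34b to mir-34c ran from -0.38 to -0.30 in SAFB, -0.25 to -0.16 in ERH and 0.10 to 0.18 in ERH against SAFB. In SAFB, mir-34c was called without control guide 2 in batch 3 or SAFB guide 1 in batch 2.

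Among added tests, SAFB against control per spike-in turned for mir-34b without control guide 2 (0.20), and for mir-34c without control guide 1 (-0.44), SAFB guide 2 (-0.15) and in 5 of 12 single leave-outs (-0.15 to 0.19). The ratio of mir-34a to mir-34c in ERH against SAFB turned without ERH guide 1 (-0.13). The ratio of mir-449a to mir-449c in ERH against control turned without control guide 2 (-0.16), ERH guide 2 (-0.13) and in 2 single leave-outs (-0.0864 to 0.16). By unadjusted exact permutation p against 0.05, mir-34b per spike-in for ERH was not under it in 8 of 12 single leave-outs, without spike-in 1 (0.71), without control guide 1 (0.23) and without ERH guide 2 (0.44), nor over SAFB without ERH guide 2 (0.75). mir-34c per spike-in was not under it for ERH without control guide 1 (0.47) or ERH guide 2 (0.61), nor over SAFB without SAFB guide 1 (0.73) or ERH guide 2 (0.58). The ratio of mir-34a to mir-34c for ERH was not under it without control guide 2 (2.32) or ERH guide 1 (1.37). Values that came under it were mir-34b per spike-in for SAFB without control guide 1 (-0.83), mir-34a to mir-34c in ERH against SAFB without ERH guide 2 (2.46) or its batch 3 library, and mir-449a to mir-449c for SAFB (2 single leave-outs) and in ERH against SAFB (2 single leave-outs, and -0.56 without ERH guide 2). The ratio of mir-34b to mir-34c came under it in 2 single leave-outs for ERH (-0.25 and -0.24) and 1 for ERH against SAFB (0.18).

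Depth limits mir-34a in control cells, where libraries had 15 to 30 counts. Each genotype had 2 edited populations, so a permutation of populations has 6 arrangements and a smallest p of 0.333; the tests here treat libraries of 1 population as separate samples.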
